A study of Mus musculus with 137 samples.

Results

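Crypts from the duodenum of mice that drank 180 ppm Cr(VI) were compared between day 91 and day 8 of exposure. The comparison used 10 libraries of a series that holds 71 crypt and 66 villus libraries: the 5 crypt libraries of mice 483, 484, 485, 488, and 490 (90 days of exposure, day 91) and the 5 crypt libraries of mice 526, 527, 528, 529, and 530 (7 days of exposure, day 8), with every probe included. All mice were female wildtype B6C3F1, and Cr(VI) (hexavalent chromium) was given as sodium dichromate dihydrate in drinking water. Untreated crypts of mice 46 to 50 (day 8) and of mice 3, 5, 6, 7, and 8 (day 91) gave the day difference without Cr(VI), and villi at 180 ppm (4 libraries at day 8, 5 at day 91) gave the day difference in the neighboring compartment. Each library came from scraped tissue of a formalin-fixed, paraffin-embedded section of 1 mouse, so a crypt library held every cell type of the crypt zone. Different mice were used at days 8 and 91. Mice at day 91 were also older, and length of exposure and age cannot be told apart within the 180 ppm groups.

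The crypt is the proliferative compartment of the small intestine. Stem cells at its base renew the epithelium, Paneth cells beside them secrete antimicrobial peptides, and absorptive enterocytes and mucus-secreting goblet cells mature as they move up to the villus. Cr(VI) is a strong oxidant that is reduced inside cells, and its toxicity in the mouse duodenum is known for villus damage and crypt hyperplasia. Heat shock proteins, which recur in the results, are chaperones that bind unfolded proteins.

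Total counts were higher at day 91. The mean was 5022971 ± 534866 (SD, n = 5, lowest 4457691, highest 5667584) in the day 91 libraries and 3232082 ± 583827 (n = 5, lowest 2341950, highest 3915273) in the day 8 libraries, a ratio of 1.55 with no overlap (exact permutation test, two-sided, p = 0.00794, the smallest that 5 against 5 libraries can give). Probes with at least 1 count numbered 20038 ± 2062 at day 91 and 17444 ± 2091 at day 8 (exact permutation p = 0.103). After every library was thinned to 1463938 counts the numbers were 18736 ± 1273 and 17216 ± 1997 (exact permutation p = 0.19). Levels below are CPM, a count scaled to the effective library size. Pearson correlations of log levels between libraries of 1 group were 0.774 to 0.899 at day 8 and 0.821 to 0.957 at day 91.

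Crypt markers were higher in the crypt than in the villus libraries at both days. Summed CPM of 18 Paneth cell genes averaged 17910 at day 8 and 14837 at day 91 in the crypt, against 3328 and 1834 in the villus of the 180 ppm groups. The sums for 41 proliferation genes were 3141 and 3218 in the crypt and 1135 and 724 in the villus. Enterocyte genes, which mark the villus, were present in the crypt libraries too: the summed CPM of 32 genes lay between 14820 and 27140 at day 8 and between 22070 and 51670 at day 91, with overlap. In 2 day 8 libraries, those of mice 529 and 530, B cell genes stood far above the other exposed libraries (summed CPM of 7 genes 1482 and 632, against 19.5 to 99.2), and results that rest on them are given with and without them. A change in a scraped sample can come from the number of cells of a type or from RNA per cell, and these cannot be told apart here.

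At 180 ppm, 357 of 26365 probes tested (1.35%) differed between days 91 and 8 at an adjusted p below 0.1 (edgeR quasi-likelihood test, Benjamini-Hochberg adjustment over all probes). They stood for 329 of 19020 genes, 217 higher and 112 lower at day 91, so 66% were higher. The median change of the 229 higher probes was 1.15 on the log2 scale, and 152 of them had no overlap between the 5 and 5 libraries. Among the 128 lower probes the median change was -2.54, but only 21 had no overlap. For comparison, 632 of all probes tested (2.4%) had CPM that did not overlap between the groups. Lower calls rested to a large extent on mice 529 and 530, whose libraries were the 2 highest of the day 8 group in 93 of the 128 lower probes and in 17 of the 229 higher ones.

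Those counts were sensitive to single libraries. Without mice 529 and 530, a setting chosen after their values were seen, 37 genes passed (27 higher, 10 lower), of which 34 were among the 329. Without 1 library at a time the count was 60 (mouse 529), 103 (490), 153 (483), 172 (530), 187 (488), 191 (484), 225 (485), 230 (527), 311 (528), and 384 (526). With the size factors of DESeq2 in place of TMM the median over all probes moved from 0.023 to -0.111, and 35.1% of 228 genes were higher. With the log10 total count as a covariate in the fit over all 28 groups, 87 genes passed (56 higher, 31 lower). Total counts did not overlap between the days, so that adjustment rests on a slope taken to be the same in all groups. Counts thinned to the smallest total gave 191 genes, 183 of them among the 329.

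**Figure D1:**
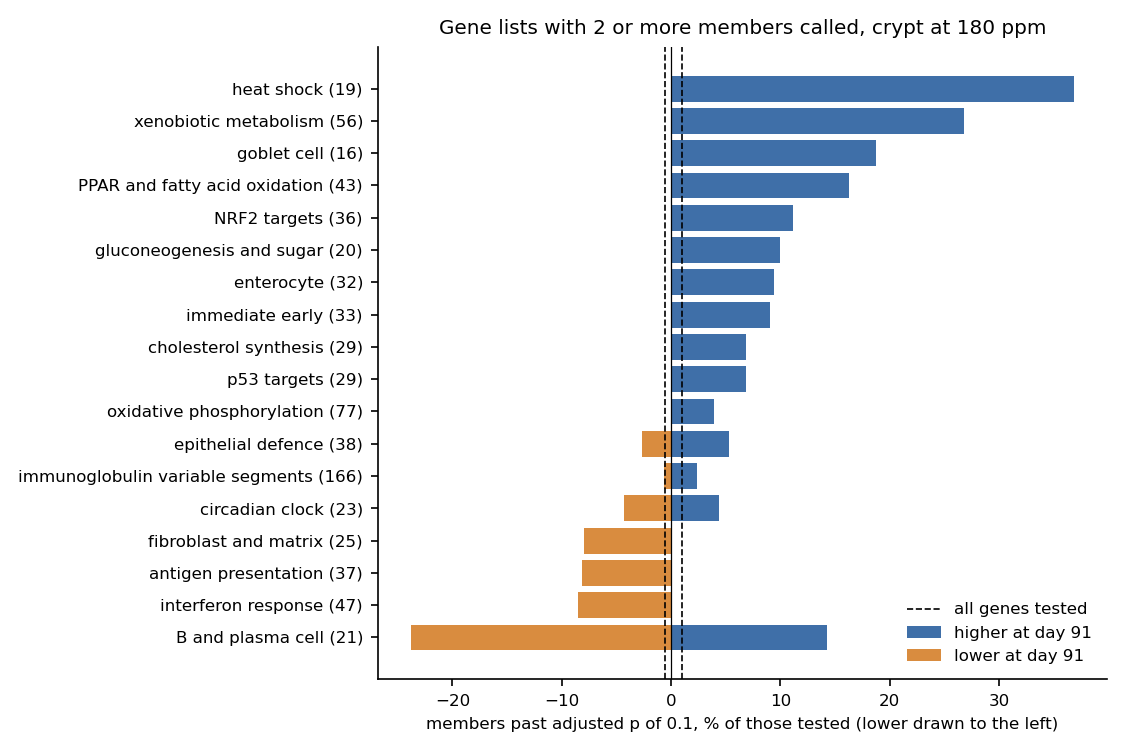
Members of each gene list past an adjusted p of 0.1 in the crypt at 180 ppm, as a percentage of the members tested (x axis, higher at day 91 to the right and lower to the left) for lists (y axis) with 2 or more members called; dashed lines mark the share of all genes tested. Heat shock (7 of 19 higher) and xenobiotic metabolism (15 of 56 higher) reach furthest to the right among lists called in 1 direction.

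Chaperone genes were higher at day 91. Of 19 heat shock genes tested, 7 rose and none fell, with a list median of 0.83 on the log2 scale; over all genes represented by 1 probe, 193 of 18998 rose (1.02%), 98 fell (0.516%), and the median was 0.03. Hspa8, the constitutive cytosolic HSP70 chaperone, stood at 352, 376, 335, 328, and 542 CPM in day 8 mice 526 to 530 and at 1175, 1562, 999, 940, and 1293 CPM in day 91 mice 483, 484, 485, 488, and 490. Every day 91 library lay above every day 8 library. The log2 change was 1.63 ± 0.24 (SE; edgeR adjusted p = 1.03e-06). In untreated crypts Hspa8 averaged 556 ± 96.8 CPM at day 8 and 455 ± 142 at day 91.

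Hspa1b, the stress-inducible HSP70, was close to 0 at day 8, with 5.32, 0, 4.1, 0.738, and 2.75 CPM in the same order of mice. At day 91 it stood at 54.5, 15.8, 176, 7.19, and 42.8 CPM. The groups did not overlap, but day 91 libraries spread widely, with mouse 485 highest and mouse 488 lowest. The log2 change was 4.22 ± 0.68 (edgeR adjusted p = 2.4e-06). Untreated crypts averaged 15.7 CPM at day 8 (range 4.32 to 31.1) and 10.8 CPM at day 91 (1.97 to 27.4), so the exposed day 8 mean of 2.58 CPM lay below both.

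Dnaja1, an HSP40 co-chaperone of HSP70, stood at 138, 140, 72.6, 106, and 186 CPM at day 8 and at 269, 272, 352, 243, and 425 CPM at day 91, again with no overlap (log2 change 1.28 ± 0.22, edgeR adjusted p = 8.95e-05). Chordc1, an HSP90 co-chaperone, averaged 229 ± 35.2 CPM at day 8 and 477 ± 72.2 at day 91 (log2 1.05 ± 0.24, adjusted p = 0.00937). These 4 genes, Hspa8, Hspa1b, Dnaja1, and Chordc1, kept an adjusted p below 0.1 in the day comparison without any 1 library and without both mice 529 and 530. The remaining members that rose were Hspa1a, the second inducible HSP70 gene (0.497 CPM to 7.67 CPM, log2 2.97 ± 1.02), Hsph1, an HSP110 exchange factor (241 to 534 CPM, 1.15 ± 0.33), and Bag3, a co-chaperone of selective autophagy (140 to 276 CPM, 0.98 ± 0.23). They are named because they complete the members called. Bag3 lost its call without mouse 529, Hspa1a without mouse 529, 530, or 485, and Hsph1 without any of 8 libraries, with adjusted p values of up to 0.294, 0.446, and 0.514 over all alternatives run. Hspa4, the member with the most counts, averaged 854 ± 114 CPM at day 8 and 1108 ± 178 at day 91 and did not pass (log2 0.38 ± 0.18, adjusted p = 0.428). Hspa1a and Hspa1b are near-identical copies, and the probes may not separate them.

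Heat shock factor HSF1 binds inverted repeats of the letters GAA. Promoters of 3 members that rose together are shown for that reason, as the 150 bases before the annotated start (RefSeq, GRCm38.p6), 5′ to 3′ on the strand of the gene, with the first match to GAANNTTC or TTCNNGAA in capitals. The Hspa1b stretch is chr17:34959239-34959388 on the minus strand, that of Dnaja1 is chr4:40722318-40722467 on the plus strand, and that of Hsph1 is chr5:149636337-149636486 on the minus strand. The matches begin at positions -104, -124, and -33 relative to the start.
Hspa1b: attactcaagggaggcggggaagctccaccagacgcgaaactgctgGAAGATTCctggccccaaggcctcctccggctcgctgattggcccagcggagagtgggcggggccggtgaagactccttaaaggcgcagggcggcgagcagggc
Dnaja1: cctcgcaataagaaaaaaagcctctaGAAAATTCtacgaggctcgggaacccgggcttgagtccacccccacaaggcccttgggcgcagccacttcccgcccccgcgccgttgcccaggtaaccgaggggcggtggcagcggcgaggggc
Hsph1: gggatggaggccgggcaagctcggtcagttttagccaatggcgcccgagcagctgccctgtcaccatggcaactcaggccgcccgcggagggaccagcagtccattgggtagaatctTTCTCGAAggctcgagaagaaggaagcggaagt
Each motif reads the same on both strands, and matches of the 2 motifs may overlap. Within 250 bases before the start, GAANNTTC was found in 6.69% and TTCNNGAA in 7.17% of 32851 promoters, and either in 12.8%. Of the 7 heat shock genes that rose, 6 had a promoter in the table and 4 of these held a match (Hspa1a, Hspa1b, Dnaja1 at 1 of its 3 starts, and Hsph1). Of the other 12 members 6 had a promoter and 3 held a match. A match is a string of letters and not evidence of binding.

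**Figure D2:**
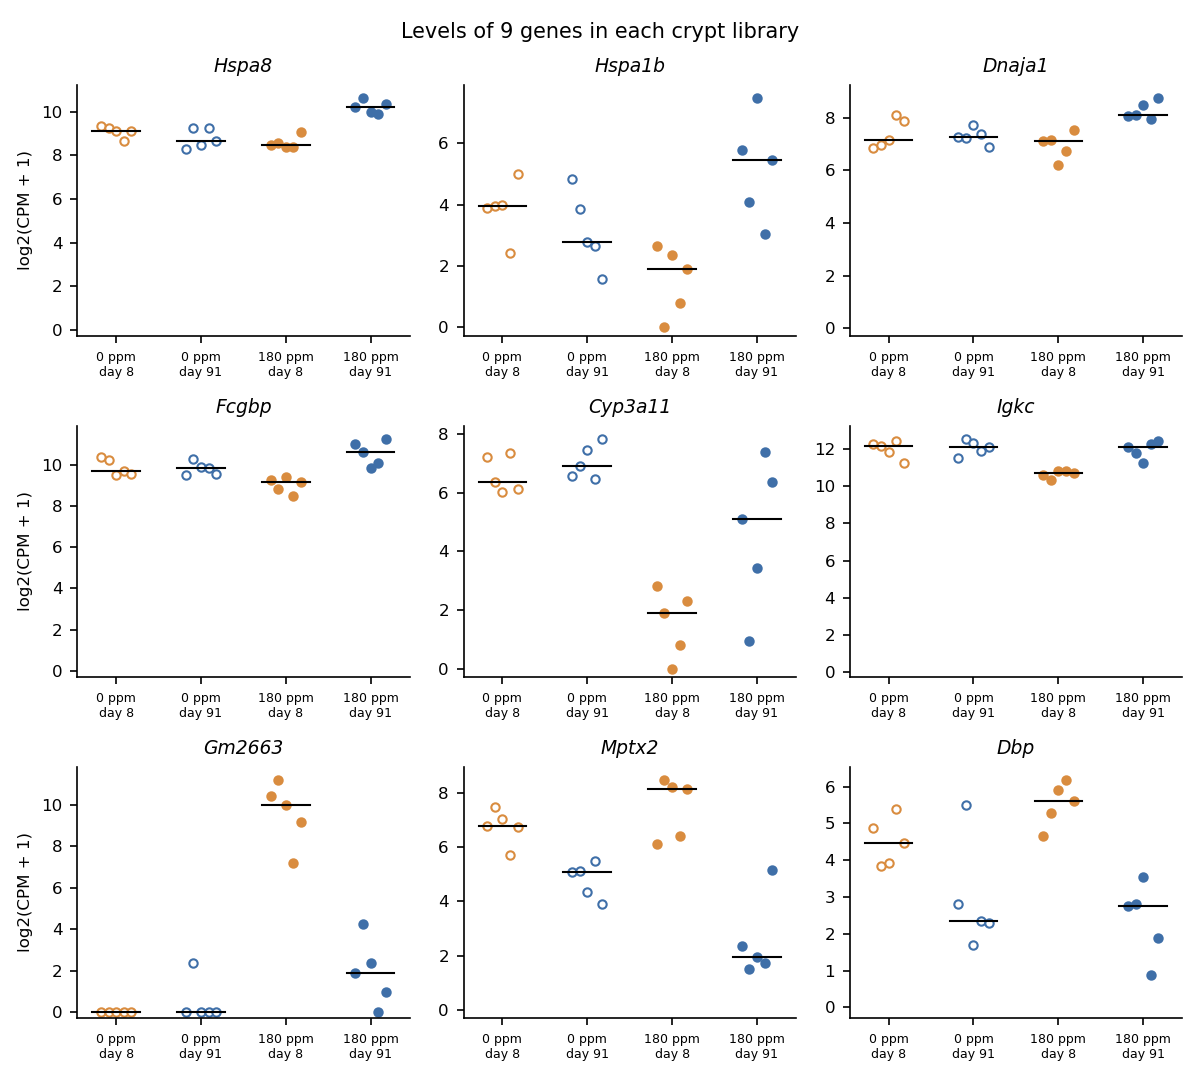
Level of 9 genes in each crypt library, as log2(CPM + 1) (y axis), for untreated (open circles) and 180 ppm (filled circles) mice at day 8 (orange) and day 91 (blue), with a line at the median of each group of 5. Hspa8, Hspa1b, Dnaja1, Fcgbp, and Igkc are higher and Gm2663, Mptx2, and Dbp lower at day 91 in the 180 ppm libraries with no overlap, while Cyp3a11 overlaps through mouse 484.

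Genes of xenobiotic metabolism (cytochrome P450s, sulfotransferases, carboxylesterases, and related enzymes) gave the largest number of calls among the lists. Of 56 tested, 15 rose and none fell (list median 0.78), against 1.02% higher and 0.516% lower over all genes. The day difference was positive for 52 members at 180 ppm and for 42 in untreated crypts (list median 0.302, none passed). Cyp3a11, a P450 with broad drug substrates, stood at 6.08, 2.73, 0, 0.738, and 3.9 CPM at day 8 and at 33.7, 0.917, 9.88, 165, and 81.1 CPM at day 91. Mouse 484 at day 91 fell inside the day 8 range, and the other 4 libraries lay above it. The log2 change was 4.14 ± 0.8 (edgeR adjusted p = 0.000366). Untreated crypts were higher than all day 8 libraries, at 105 CPM (63.7 to 162) at day 8 and 140 CPM (87.4 to 226) at day 91.

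Ces2c, an intestinal carboxylesterase, stood at 247, 282, 159, 174, and 208 CPM at day 8 and at 844, 220, 243, 1025, and 1018 CPM at day 91 (log2 1.65 ± 0.34, adjusted p = 0.00321). Mice 484 and 485 lay in the day 8 range. Those 2 mice also had the lowest summed CPM of enterocyte genes at day 91, 25220 and 22070 against 43040, 50530, and 51670 in mice 488, 483, and 490. With the log2 ratio of summed enterocyte to summed crypt marker CPM as a covariate, 225 genes passed (162 higher, 63 lower), 177 of them among the 329, and Cyp3a11 (3.54, adjusted p = 0.00283) and Ces2c (1.24, adjusted p = 0.0329) kept their calls in edgeR. Sult1d1, a sulfotransferase, did not overlap (39.1 ± 21.1 CPM to 106 ± 22.1, log2 1.46 ± 0.31, adjusted p = 0.00449), and Cyp2c66, another P450, rose from 12.8 ± 8.23 to 56.9 ± 47.4 CPM (2.13 ± 0.48, adjusted p = 0.00624). Without mice 529 and 530, 1 member of the list passed instead of 15, whereas the list median was 0.74.

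Fat oxidation genes rose in 7 of 43 tested cases and fell in none (list median 0.47). Over all genes 1.02% rose and 0.516% fell. The day difference was positive for 36 members at 180 ppm and for 29 in untreated crypts (list median 0.252, none passed). Hadhb, a subunit of the mitochondrial trifunctional protein of fatty acid oxidation, stood at 29.1, 5.07, 21.2, 16.7, and 19.7 CPM at day 8 and at 74.2, 46.5, 45.8, 51.8, and 74.4 CPM at day 91. The 2 groups did not overlap (log2 1.61 ± 0.28, adjusted p = 7.03e-05). Hadha, the partner subunit, averaged 306 ± 59.5 CPM at day 8 and 532 ± 121 at day 91 (0.8 ± 0.2, adjusted p = 0.0324). Plin2, a coat protein of lipid droplets, moved from 136 ± 32.8 to 265 ± 57.4 CPM (0.95 ± 0.24, adjusted p = 0.0324), and Cyp4a10, a fatty acid hydroxylase, was detected in 1 of 5 libraries at day 8 and in 4 of 5 at day 91 (3.33 ± 1.13, adjusted p = 0.0365). Of these, only Hadhb kept its call without mice 529 and 530, while the log2 changes of Hadha, Plin2, and Cyp4a10 were 0.71, 0.95, and 4.27. The summed CPM of enterocyte genes was also higher at day 91 (a mean of 38506 against 20606). With the enterocyte to crypt marker ratio as a covariate Hadhb (1.56, adjusted p = 0.00024) and Cyp4a10 (2.96, adjusted p = 0.0942) passed. Hadha (0.67) and Plin2 (0.8) did not (both adjusted p = 0.105).

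Among NRF2 targets, which defend against oxidants, 4 of 36 rose and none fell, against 1.02% higher and 0.516% lower over all genes. The day difference was positive for 29 members at 180 ppm (list median 0.532). In untreated crypts it was positive for 24 members (list median 0.231), and none passed. Gsta1, a glutathione transferase, stood at 1492, 753, 818, 791, and 961 CPM at day 8 and at 3704, 2193, 2251, 1879, and 3232 CPM at day 91 (log2 1.46 ± 0.38, adjusted p = 0.0372). The groups did not overlap, with mouse 526 set apart at day 8. In untreated crypts Gsta1 averaged 682 CPM at day 8 and 1444 CPM at day 91 (1.08, adjusted p = 0.641). Its paralogs Gsta2 (1.52 ± 0.4, adjusted p = 0.0368) and Gsta4 (1.38 ± 0.39, adjusted p = 0.0629) and the ferritin heavy chain gene Fth1 (1.11 ± 0.31, adjusted p = 0.0645) were the other members called. Probes for Gsta paralogs may share reads. Each of the 4 lost its call without mouse 529 alone, at log2 changes of 1.35 (Gsta1), 1.37 (Gsta2), 1.24 (Gsta4), and 1.03 (Fth1). With the same covariate Gsta1 (1.3, adjusted p = 0.0963) and Gsta2 (1.38, adjusted p = 0.0879) passed. Gsta4 (1.2, adjusted p = 0.143) and Fth1 (0.89, adjusted p = 0.187) did not.

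Enterocyte markers rose in 3 of 32 cases, against 1.02% of all genes. Fabp2, a fatty acid carrier of enterocytes, stood at 5454, 10107, 4331, 4761, and 7023 CPM at day 8 and at 22197, 8683, 6161, 19616, and 23153 CPM at day 91 (log2 1.33 ± 0.31, adjusted p = 0.0135), with mice 484 and 485 in the day 8 range. Alpi, intestinal alkaline phosphatase, averaged 517 ± 293 and 1311 ± 291 CPM (1.34 ± 0.38, adjusted p = 0.0616). Apoa1, an apolipoprotein of lipid transport, averaged 601 ± 265 and 1439 ± 1158 CPM (1.26 ± 0.38, adjusted p = 0.0911), both below the untreated means of 6005 and 5694 CPM. Without mice 529 and 530 none of the 3 passed. Single libraries also ended these calls: Fabp2 lost its call in 6 of 24 settings (without mouse 529 or 490 alone among them), Alpi in 13, and Apoa1 in 21, with 8 single libraries each for the last pair.

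Goblet cell markers rose in 3 of 16 cases, against 1.02% of all genes. Fcgbp, a mucus protein, stood at 613, 455, 673, 353, and 567 CPM at day 8 and at 2046, 1535, 921, 1087, and 2379 CPM at day 91. All 5 libraries of day 91 were above those of day 8 (log2 1.58 ± 0.28, adjusted p = 0.000152). Clca1, a secreted protease of mucus, was at 134, 32.8, 65.4, 60.6, and 90.1 CPM at day 8 and at 343, 201, 176, 206, and 389 CPM at day 91, also without overlap (1.76 ± 0.32, adjusted p = 0.000366). Both kept their calls without mice 529 and 530. Muc2, the gel-forming mucin, averaged 91.2 ± 23.8 and 169 ± 60.7 CPM (0.88 ± 0.27) and was at the edge of the threshold (adjusted p = 0.0975). It lost its call in 19 of 24 settings, 8 of which left out a single library (adjusted p up to 0.582). Zg16, the most abundant member, did not pass (0.27 ± 0.31, adjusted p = 0.801).

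Among the 10 genes with the smallest adjusted p and no overlap on the higher side, Bhlhe40, Cxcl14, and Iyd lay outside the chaperone, fat oxidation, goblet cell, and immunoglobulin groups. Bhlhe40, a transcriptional repressor tied to the circadian clock, stood at 124, 66.3, 72.3, 93.3, and 109 CPM at day 8 and at 248, 342, 220, 318, and 331 CPM at day 91 (log2 1.64 ± 0.26, adjusted p = 1.17e-05). Untreated crypts held 94.8 and 91.7 CPM, near the exposed day 8 level. Cxcl14, an epithelial chemokine, was at 37.5, 34.7, 12, 14.3, and 11.2 CPM at day 8 and at 97.9, 87.8, 39.4, 145, and 97.5 CPM at day 91 (2.09 ± 0.34, adjusted p = 2.32e-05), against 106 and 97.7 CPM in untreated crypts. Iyd, an iodotyrosine deiodinase, was at 13.9, 6.63, 4.74, 3.45, and 3.67 CPM at day 8 and at 52.1, 31.2, 25.2, 54.2, and 25.8 CPM at day 91 (2.44 ± 0.42, adjusted p = 4.23e-05), against 99.3 and 143 CPM. Levels of Cxcl14 and Iyd at 180 ppm and day 8 were thus the lowest of the 4 group means, while for Bhlhe40 the 180 ppm group at day 91 was the highest.

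The plasma cell genes Igkc, Jchain, and Igha rose, and the B cell genes Cd22, Ms4a1, Ighm, and Cd79b fell through a pair of libraries. Of 21 B and plasma cell markers, 3 rose and 5 fell, against 1.02% higher and 0.516% lower over all genes. Igkc, the constant region of the kappa light chain, stood at 1579, 1298, 1838, 1793, and 1691 CPM at day 8 and at 4552, 3592, 2488, 4986, and 5661 CPM at day 91 (log2 1.38 ± 0.27, adjusted p = 0.00141). The day 8 libraries were close together and below all of day 91, and untreated crypts averaged 4250 and 4460 CPM. Jchain, which joins polymeric IgA, averaged 424 ± 127 and 1448 ± 543 CPM (1.77 ± 0.35, adjusted p = 0.00157), and Igha, the IgA heavy chain, 1342 ± 408 and 3530 ± 868 CPM (1.4 ± 0.32, adjusted p = 0.0129), neither with overlap. Igkc and Jchain kept their calls without mice 529 and 530, and Igha did not.

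The sum of 7 plasma cell genes ran from 2367 to 4114 CPM at 180 ppm and day 8, from 7012 to 12328 CPM at day 91, and from 7131 to 16964 CPM over the 10 untreated crypts. Exposed libraries of day 8 were below all others. Variable segments rose in 4 of 166 cases and fell in 1, with a list median of 0.45, against 1.02% higher and 0.516% lower over all genes. Igkv8-30 stood at 81.6, 113, 104, 94.3, and 118 CPM at day 8 and at 553, 443, 301, 626, and 920 CPM at day 91 (log2 2.47 ± 0.43, adjusted p = 0.000144). Igkv8-28 (1.99 ± 0.41, adjusted p = 0.00253) and Igkv8-19 (1.96 ± 0.43, adjusted p = 0.00621) moved likewise. Each lost its call in 1 setting (adjusted p = 0.22 and 0.243), and Igkv8-30 in none. Igkv11-125 fell (-3.18 ± 0.87, adjusted p = 0.0161), a call lost without mouse 529 (adjusted p = 0.255) and without mice 529 and 530 (adjusted p = 0.719). Variable segments resemble each other in sequence, so assignment to 1 of them is uncertain.

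B cell genes behaved otherwise. Cd22, a B cell inhibitory receptor, was at 0, 7.02, 0, 155, and 66.3 CPM at day 8 and between 0.826 and 1.98 CPM at day 91 (log2 -4.76 ± 1.17, adjusted p = 0.00737). Only mice 529 and 530 were high. Ms4a1, Ighm, and Cd79b, which also fell and were chosen after their values were seen, had the same 2 libraries at the top (Ms4a1 0, 0, 0, 103, and 39 CPM). In the sum of 7 B cell genes untreated mouse 50 was also high, at 691 CPM. Without mice 529 and 530 none of these 4 genes was called, and the sign of Ms4a1, Ighm, and Cd79b turned positive (0.81, 1.33, and 0.14). Genes H2-Ob and H2-DMb2 of class II presentation followed the same pair of libraries. They were 2 of the 3 called lower among 37 presentation genes, against 0.516% lower over all genes. H2-Ob stood at 0, 0, 0, 73.4, and 56.7 CPM at day 8.

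**Figure D3:**
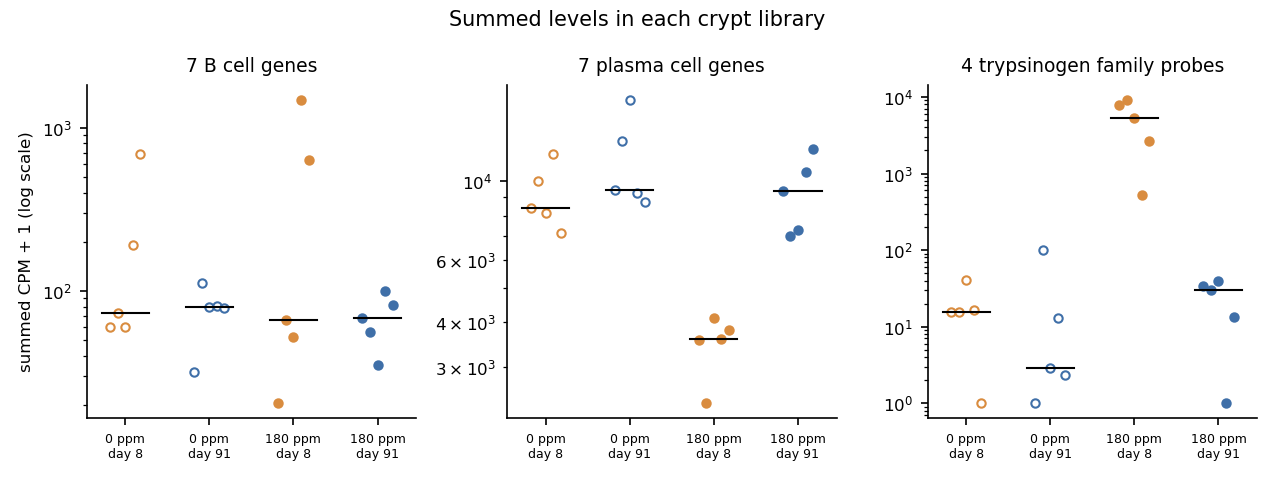
Summed level of 7 B cell genes, 7 plasma cell genes, and 4 trypsinogen family probes in each crypt library, as CPM + 1 on a log axis (y axis), for untreated (open) and 180 ppm (filled) mice at days 8 and 91, with a line at the median. The highest B cell sums are those of mice 529 and 530 and untreated mouse 50 (1482, 632, and 691 CPM), and the 5 exposed libraries of day 8 have the lowest plasma cell sums (2367 to 4114 CPM) and the highest trypsinogen sums (516 to 9217 CPM).

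The largest differences of the comparison were in trypsinogen family probes on chromosome 6. Gm2663 stood at 1386, 2332, 1040, 145, and 587 CPM at day 8 and at 2.69, 17.9, 4.13, 0, and 0.963 CPM at day 91 (log2 -7.65 ± 0.66, adjusted p = 3.28e-19). Gm5771 was at 2846, 3028, 2085, 195, and 1032 CPM and then at 15.5, 3.67, 6.11, 0, and 0.963 CPM (-8.31 ± 0.82, adjusted p = 3.55e-15). All day 8 libraries were far above all day 91 libraries, and mouse 529 was the lowest of day 8. 1810009J06Rik averaged 119 ± 91.5 and 0.211 ± 0.358 CPM (-7.31 ± 0.91, adjusted p = 5.72e-14), with 5 counts in all at day 91. One probe of Prss1, cationic trypsinogen, fell from 2053 ± 1508 to 12.2 ± 10.5 CPM (-7.31 ± 0.98, adjusted p = 5.37e-08). The probe with the most counts for Prss1 averaged 2954 CPM and 660.6 CPM and did not pass (-2.16, adjusted p = 0.5907).

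In GENCODE M21 (GRCm38) these genes lie at chr6:40964754-40968435 (1810009J06Rik), chr6:40995830-40999479 (Gm2663), chr6:41392356-41397230 (Gm5771), and chr6:41458932-41463786 (Prss1). They are protein-coding members of a family of near-identical sequence, so which gene the reads came from is uncertain. At every other concentration and day, the crypt group means of the 4 probes were 40.7 CPM or less. Trypsinogen is made by pancreatic acinar cells, and of 29 acinar markers tested, a list that does not hold these 4 probes, only 1 had a positive change and none passed (edgeR; 1 had an unadjusted p below 0.05, DESeq2 called 0, list median -1.40). The member with the most counts, the amylase gene Amy2a1, lay between 928 and 17344 CPM at day 8 and between 1.69 and 9753 CPM at day 91 (log2 -1.24 ± 1.49, adjusted p = 0.814). The summed CPM of the 4 trypsinogen probes, divided by the acinar sum (which does not include them), came to 14.8%, 10.9%, 6.1%, 8.74%, and 11% in day 8 mice 526 to 530, and to 0.073%, 0.322%, 0.122%, 0%, and 0.139% in the day 91 mice. Untreated crypts held 0% to 0.0945%, including mouse 5, whose acinar sum of 296400 CPM was the highest. The 5 libraries at 180 ppm and day 8 were above all others in this ratio, mouse 529 with the low acinar sum of 5904 CPM included. What part acinar content had in these differences was not tested beyond a fit with the acinar sum as a covariate, in which all 4 probes passed.

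Mptx2, Dbp, and Reg2 fell at 180 ppm and also had a negative day difference in untreated crypts. Mptx2, a pentraxin of Paneth cells, stood at 67.6, 350, 296, 83.9, and 279 CPM at day 8 and at 4.13, 1.83, 2.88, 2.33, and 35.1 CPM at day 91 (log2 -4.43 ± 0.65, adjusted p = 7.36e-07). No library overlapped, and mouse 490 was highest at day 91. In untreated crypts the means were 114 and 28.6 CPM (-1.97, adjusted p = 0.394). Dbp, a clock output transcription factor, was at 24.3, 38.2, 58.7, 71.4, and 47.5 CPM and then at 5.78, 5.96, 10.6, 0.846, and 2.7 CPM (-3.07 ± 0.59, adjusted p = 0.000454), against 23.6 and 12 CPM in untreated crypts (-0.98, adjusted p = 0.74). Reg2, a regenerating family gene, averaged 41.4 ± 50.5 and 0.464 ± 0.637 CPM (-5.3 ± 1.31, adjusted p = 0.00284), and fell in untreated crypts as well (-5.96, adjusted p = 0.00972).

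Genes lower at day 91 with no overlap included Cstf2t, a polyadenylation factor (320 ± 60.5 to 167 ± 17.1 CPM, log2 -0.94 ± 0.18, adjusted p = 0.000537), Trim34a, a tripartite motif gene (26.4 ± 12.3 to 5.36 ± 1.79 CPM, -2.17 ± 0.46, adjusted p = 0.00244), and Sparc, a matrix glycoprotein (158 ± 27.1 to 80.1 ± 18.5 CPM, -0.97 ± 0.23, adjusted p = 0.0161). Trim34a lost its call without mice 529 and 530, and Cstf2t and Sparc kept theirs. Sparc and the collagen gene Col1a1 (371 ± 93.5 to 191 ± 29.5 CPM, -0.96 ± 0.28, adjusted p = 0.0796) were the members called among 25 fibroblast and matrix genes. Col1a1 lost its call in 10 of 24 settings, including those without mouse 528, 529, 530, 483, 485, 488, or 490 alone (adjusted p up to 0.238). Interferon-stimulated genes fell in 4 of 47 cases with no member higher (list median -0.64). Over all genes 0.516% fell, which is also the comparison for the fibroblast and matrix genes. In untreated crypts the interferon list median was -0.41, and no member passed. Parp14 averaged 141 ± 44.1 and 68.3 ± 20.7 CPM (-1.04 ± 0.27, adjusted p = 0.0338) and Usp18, which damps interferon signaling, 54.4 ± 36.1 and 14.8 ± 8.89 CPM (-1.82 ± 0.52, adjusted p = 0.0592). Stat2 (-1.11 ± 0.33, adjusted p = 0.0793) and Oasl2 (-1.45 ± 0.43, adjusted p = 0.0793) completed the 4. Psmb9, an immunoproteasome subunit, fell with a narrow gap between the groups (75.8 ± 15.9 to 35.6 ± 12 CPM, -1.08 ± 0.28, adjusted p = 0.0338). Without mice 529 and 530 none of Parp14, Usp18, Stat2, Oasl2, and Psmb9 passed, and the interferon list median was -0.30.

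Smaller numbers of calls, 1 to 3 a list, fell in other stress and signaling groups, where 1.02% of all genes rose. Gadd45a, a p53 target that responds to DNA damage, averaged 92.9 ± 8.06 and 218 ± 123 CPM (log2 1.23 ± 0.26, adjusted p = 0.00321), and 2 of 29 p53 targets rose. In untreated crypts the day difference of Gadd45a was -0.21 (edgeR adjusted p = 0.856). Summed CPM of the p53 targets averaged 982 at day 8 and 1307 at day 91 at 180 ppm, against 1258 and 1170 in untreated crypts. Herpud1, of endoplasmic reticulum associated degradation, lay between 20.7 and 88.5 CPM at day 8 and between 66.9 and 236 CPM at day 91 (1.41 ± 0.29, adjusted p = 0.0029) and was the 1 member of 30 unfolded protein response genes to rise. Immediate early genes rose in 3 of 33 cases, with Dusp6 (1.38 ± 0.34, adjusted p = 0.018), Ier2 (0.7 ± 0.17, adjusted p = 0.0235), and Dusp1 (2.31 ± 0.66, adjusted p = 0.0415), and 2 of 29 cholesterol synthesis genes rose, Sc5d (1.13 ± 0.27, adjusted p = 0.0135) and Msmo1 (0.85 ± 0.24, adjusted p = 0.0678). Gluconeogenesis and sugar genes rose in 2 of 20 cases, among them Txnip (0.85 ± 0.23, adjusted p = 0.0453). Among epithelial defense genes S100a6 rose (71.7 ± 40.4 to 210 ± 67 CPM, 1.53 ± 0.33, adjusted p = 0.00408), as did S100a14 (1.41 ± 0.4, adjusted p = 0.0616), and Tnf fell (-2.44 ± 0.83, adjusted p = 0.073). Areg, an epidermal growth factor receptor ligand, averaged 3.18 ± 4.64 and 25.1 ± 15.9 CPM (2.72 ± 0.71, adjusted p = 0.021). Of the genes in this paragraph, Herpud1 alone kept its call without mice 529 and 530.

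No member passed among 20 stem cell, 41 proliferation, 18 Paneth cell, 31 hypoxia, or 37 DNA repair genes (edgeR). The Paneth cell list does not hold Mptx2, described above, which fell. At an unadjusted p below 0.05 the numbers were 0, 1, 3, 7, and 1, against 2743 of all 26365 probes, and DESeq2 called 0 in each of these lists. Of the 31 hypoxia genes, 25 had a positive day difference at 180 ppm (list median 0.257), against 13 in untreated crypts (list median -0.053). Their summed CPM at 180 ppm lay between 1993 and 2785 at day 8 and between 2993 and 4192 at day 91, with no overlap. Olfm4, a stem cell marker, averaged 204 ± 84.3 CPM at day 8 and 377 ± 84.2 at day 91 (log2 0.88 ± 0.49, adjusted p = 0.539). It passed with the enterocyte to crypt marker ratio, of which it is itself a part, as a covariate (1.76, adjusted p = 0.00727). Mki67, a proliferation marker, averaged 86.5 ± 17.8 and 62.9 ± 14.8 CPM (-0.45 ± 0.34, adjusted p = 0.677). Among Paneth cell genes, Defa22 averaged 5870 ± 1427 and 4826 ± 1774 CPM (-0.28 ± 0.53, adjusted p = 0.889) and the protease Mmp7 423 ± 77.2 and 231 ± 65.7 CPM (-0.87 ± 0.48, adjusted p = 0.535). Mmp7 passed in edgeR when only the 10 libraries entered (-1.01, adjusted p = 0.0199). The median change was 0.28 in the stem cell list, 0.10 in the proliferation list, -0.46 in the Paneth cell list, and 0.26 in the ribosomal protein list. With the size factors of DESeq2 the last was 0.04.

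Whether the day difference at 180 ppm was unlike that in untreated crypts was tested with the interaction of concentration and day. It passed for 29 of 26365 probes (0.11%), 29 genes, 26 with a more positive and 3 with a more negative day difference at 180 ppm (edgeR, adjusted p below 0.1). The count was 7 after thinning, 9 with DESeq2 size factors, 12 from only 20 libraries, 13 with the total count covariate, and 17 with no filter or without mice 529 and 530. Hspa8 differed by 1.92 ± 0.33 on the log2 scale (adjusted p = 0.000587), Hspa1b by 4.81 (adjusted p = 0.00112), Igkv8-30 by 2.99 (adjusted p = 0.00851), and Cxcl14 by 2.19 (adjusted p = 0.0177). In untreated crypts the day differences of these 4 genes were -0.29, -0.59, -0.52, and -0.11, none past the threshold. The call of Cxcl14 was lost without untreated mouse 46 (adjusted p = 0.106), without mice 529 and 530 (adjusted p = 0.266), and from only 20 libraries (adjusted p = 0.204), and that of Hspa1b with the legacy edgeR estimate (adjusted p = 0.224). Other genes described above that passed were Dnaja1 (1.43, adjusted p = 0.0235), Bhlhe40 (1.69, adjusted p = 0.0235), Fcgbp (1.67, adjusted p = 0.0532), Hspa1a (4.78, adjusted p = 0.0532), Herpud1 (1.72, adjusted p = 0.0567), Chordc1 (1.36, adjusted p = 0.0885), Igkv8-19 (2.39, adjusted p = 0.0885), Gadd45a (1.44, adjusted p = 0.0914), and Cyp3a11 (3.71, adjusted p = 0.0973).

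The 3 negative interactions were Prss1 (-8.07, adjusted p = 0.000325), Gm5771 (-7.78, adjusted p = 0.0177), and Lmo3 (-4.73, adjusted p = 0.0607). Lmo3, a LIM domain gene, was at 0 in all untreated day 8 libraries and at most 3.44 CPM in the exposed ones, so its fitted value depends on the prior count and is no bound. Its call was lost in 17 of 31 settings, 12 of which left out a single library. Without untreated mouse 5, neither Prss1 (-5.44, adjusted p = 0.666) nor Gm5771 (-7.12, adjusted p = 0.417) passed. Prss1 also lost its call with probes summed per gene (-4.46, adjusted p = 0.775) and in DESeq2 (-8.28, adjusted p = 0.149), and Gm5771 without untreated mouse 7 (adjusted p = 0.138) and after thinning (adjusted p = 0.126). The interaction did not pass for the other 2 trypsinogen family genes, Gm2663 (-8.86, adjusted p = 0.247) and 1810009J06Rik (-6.52, adjusted p = 0.808), which were at or near 0 in untreated crypts. For Mptx2 (-2.46, adjusted p = 0.47), Dbp (-2.09, adjusted p = 0.612), and Reg2 (0.66, adjusted p = 1) the interaction did not pass, which does not show that the day difference was equal. Without 1 library at a time the count of genes ran from 7 (untreated mouse 7) to 32 (untreated mouse 50). It was 10 without mouse 46, 49, 3, or 490, 11 without mouse 6, 8, or 527, 12 without mouse 529, 14 without mouse 47, 530, or 488, 15 without mouse 483, 16 without mouse 528, and 19 without mouse 48.

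Against the villus, 1 of 26365 probes (0.00379%) had a day difference that differed between compartments at 180 ppm, and 1659 probes had an unadjusted p below 0.05 (edgeR, mice not paired). The gene was Dtx3, a Deltex family E3 ligase, at 9.3 ± 4.51 and 9.11 ± 2.83 CPM in the crypt and in the villus at 0 in all 4 day 8 libraries and at a mean of 15.5 CPM at day 91 (-4.93, adjusted p = 0.0539). Its fitted value again depends on the prior count, and its call was lost in 9 of 31 settings, 7 of which left out a single library (adjusted p up to 0.321 over the 9). The largest positive interaction by p, Ighv2-5, an immunoglobulin heavy variable segment, did not pass (5.43, adjusted p = 0.3228). Villus means at days 8 and 91 were 365 and 640 CPM for Hspa8, 133 and 484 CPM for Cxcl14, 1121 and 2642 CPM for Fcgbp, and 2299 and 4575 CPM for Igkc. The difference between compartments did not pass for these 4 genes (0.81, 0.22, 0.34, and 0.38 on the log2 scale), which does not show that crypt and villus moved alike. With the mouse as a block, the only fit that paired crypt and villus libraries by mouse, 107 genes passed (13 positive, 94 negative). With DESeq2, also unpaired, 50 genes passed.

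At the other concentrations, days 91 and 8 of the crypt differed in 10 probes at 0 ppm (0.0379%, 8 genes), 4 at 0.1 ppm (0.0152%), 10 at 1.4 ppm (0.0379%), 438 at 5 ppm (1.66%, 415 genes), 13 at 20 ppm (0.0493%), and 2521 at 60 ppm (9.56%, 2305 genes). The count at 180 ppm thus lay below that at 60 ppm, and the counts did not rise steadily with concentration. In genes, DESeq2 size factors gave 18 at 0.1 ppm in place of 4, and DESeq2 gave 24 at 0 ppm in place of 8, 10 at 0.1 ppm, and 30 at 20 ppm in place of 13. Hspa8 had a day difference of 1.96 ± 0.24 at 60 ppm (adjusted p = 3.85e-09) and 0.9 at 5 ppm (adjusted p = 0.0413) besides that at 180 ppm. Hspa1b did not pass at 60 ppm (1, adjusted p = 0.454) and neither did Dnaja1 (0.3, adjusted p = 0.512). Bhlhe40 passed at 5, 20, and 60 ppm (1.25, 1.63, and 1.79), Mptx2 at 5, 20, and 60 ppm (-2.26, -3.92, and -5.72), and Reg2 at 0, 5, and 20 ppm (-5.96, -4.95, and -5.46).

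**Figure D4:**
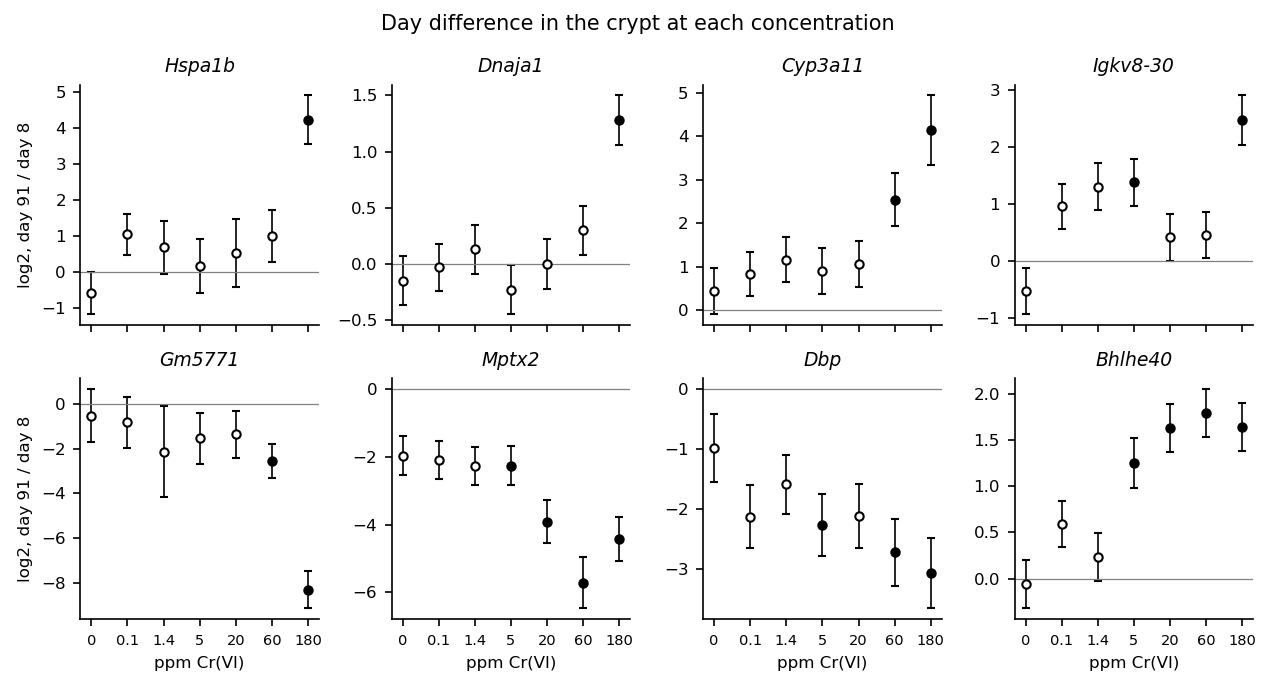
Day difference in the crypt (day 91 minus day 8, log2, y axis) of 8 genes at each concentration of Cr(VI) in ppm (x axis, evenly spaced), with bars of 1 SE from the edgeR fit and filled points past an adjusted p of 0.1. Over the concentrations, Hspa1b (4.22), Dnaja1 (1.28), Cyp3a11 (4.14), Igkv8-30 (2.47), Gm5771 (-8.31), and Dbp (-3.07) each lie furthest from 0 at 180 ppm. Mptx2 and Dbp are below 0 at every concentration, and Bhlhe40 passed at 5, 20, 60, and 180 ppm.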

How the data were processed

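Expression was measured with TempO-Seq, a targeted RNA sequencing method in which probe pairs are ligated on the RNA of lysed tissue and counted. The deposited values were raw counts per probe (30146 probes, 21450 genes, 71 crypt and 66 villus libraries from 71 mice). The submitters' processing notes name bcl2fastq 2.17.1.14 and Bowtie, for which no version is stated, and the genome build is not given in the sources used here. Library totals ran from 1463938 to 7199801 counts, which limits low probes most. The SE of a log2 change came from the edgeR fit and covers the spread between libraries as well as counting error.

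Counts were fitted in edgeR 4.0.16 (R 4.3.3) with TMM scaling, the default filter on low counts, 1 quasi-likelihood fit over all 28 groups, and a prior count of 2. Adjusted p is Benjamini-Hochberg over all probes tested, with a threshold of 0.1, and ± after a log2 value is its SE, after a CPM its SD. A gene in a list was represented by its probe with the most counts. DESeq2 1.42.0 served alternatives. The fit was checked on simulated data. Each mouse gave 1 crypt library, so mice are the replicates. Crypt and villus libraries of 1 mouse were paired by its number: deviations of 9 pairs correlated from -0.15 to 0.39 (median 0.2).

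The comparison, the 57 gene lists, and the tests were chosen with earlier results of these data known. Named genes were the 10 higher and 10 lower with the smallest adjusted p and no overlap, the leading interactions, and up to 4 members of each list. 6 genes were named after their values were seen (Ms4a1, Ighm, Cd79b, Hspa1a, Hsph1, and Bag3). Genes were placed by symbol in GENCODE M21 (GRCm38), and promoters came from RefSeq (GRCm38.p6). Hspa8 had no promoter entry. Probe sequences were not used here, and results of some genes are not reported here.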

Additional observations from a re-analysis of the deposited data

Results flagged for a closer look

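In 82 groups of 5 libraries tested with Dixon's criterion, 9 held a library set apart from the others, where chance gives about 1 in 20. At day 8 these were Hspa8 in mouse 530 (542 CPM) and Gsta1 in mouse 526 (1492 CPM). At day 91 they were Hspa1b in mouse 485 (176 CPM), Gm2663 in mouse 484 (17.9 CPM), 1810009J06Rik in mouse 483 (0.826 CPM), Mptx2 in mouse 490 (35.1 CPM), Trim34a in mouse 484 (2.29 CPM), Lmo3 in mouse 484 (0.688 CPM), and Cd22 in mouse 485 (1.98 CPM).

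The day difference at 180 ppm minus that in untreated crypts passed the interaction test for 29 genes. It was 1.92 on the log2 scale for Hspa8, 4.81 for Hspa1b, 2.99 for Igkv8-30, 2.19 for Cxcl14, -8.07 for Prss1, -7.78 for Gm5771, and -4.73 for Lmo3. Between crypt and villus at 180 ppm 1 gene passed, Dtx3 at -4.93.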

How the results depend on the processing

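The number of genes that differed between days at 180 ppm, 329, was 611 with the summed acinar CPM as a covariate, 191 after thinning to equal totals, 154 with the legacy edgeR estimate, 114 with that estimate and only the 10 libraries, 87 with the log10 total count as a covariate, and 37 without mice 529 and 530. The share higher, 66%, was 35.1% with DESeq2 size factors and 49.7% with DESeq2. Leaving out 1 library gave 60 to 384 genes (45 to 203 higher, 15 to 181 lower). The interaction with untreated crypts, 29 genes, gave 9 with DESeq2 size factors, 17 with no filter, 13 with the total count covariate, 7 thinned, 12 from only 20 libraries, 10 without untreated mouse 49, 17 without mice 529 and 530, and 7 to 32 without 1 library. Crypt minus villus, 1 gene, gave 2 with DESeq2 size factors, no filter, the acinar covariate, or probes summed, 4 with a mean count of at least 10, 0 thinned or with only the 180 ppm libraries, 50 with DESeq2, 0 to 3 without 1 library, and 107 (13 positive, 94 negative) with the mouse as a replicate block, the only comparison in which mice are paired. At 0.1 ppm DESeq2 size factors gave 18 genes, and DESeq2 gave 24 at 0 ppm, 10 at 0.1 ppm, and 30 at 20 ppm. The sign turned for Zg16 (-0.08 with the total count covariate, -0.18 without mice 529 and 530), Amy2a1 (0.3, acinar covariate), Defa22 (0.76, enterocyte marker ratio covariate), and, without mice 529 and 530, Ms4a1 (0.81), Ighm (1.33), Cd79b (0.14), and H2-Ob (1.86). Causes of these changes were not tested. Of 78 gene results past the threshold, 24 were never lost under the alternatives run. Lower depth at day 8 limits what can be said of probes near 0.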
